A study of Rattus norvegicus with 36 samples.

Results

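Radiation and a chemical carcinogen were given in sequence to rats, and the mammary cancers that arose after gamma rays plus MNU were set against those that arose after gamma rays plus PhIP. The comparison holds 8 of the 36 arrays of the series, 4 of each group, taken by their labels, and it runs across all genes measured. MNU (N-methyl-N-nitrosourea) is an alkylating agent that acts without metabolic activation and methylates DNA bases directly. PhIP is a heterocyclic amine formed when meat is cooked, which enzymes of the cytochrome P450 family must activate before it forms bulky adducts on guanine. Both chemicals induce mammary cancer in rats. O6-methylguanine, one of the lesions left by MNU, is repaired by the methyltransferase Mgmt, and the aryl hydrocarbon receptor, encoded by Ahr, controls P450 enzymes that take part in the activation of compounds like PhIP.

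The radiation plus MNU group consisted of 4 cancers from female Sprague-Dawley rats that received 1 Gy of gamma rays to the whole body from a caesium source at 7 weeks of age and 40 mg/kg of MNU by injection into the peritoneum 3 days later. The radiation plus PhIP group consisted of 4 cancers from rats of the same strain, sex and age that received the same irradiation, followed after 3 days by the hydrochloride of PhIP by gavage at 40 mg/kg per day, on 5 days a week for 2 weeks. The groups therefore differed in the number of doses and the route as well as in the chemical. The cancers of both groups carried no mutation in H-ras, and the rats of both were kept on feed with 23.5% corn oil from 9 weeks of age. The same 2 chemicals were also given without radiation (4 cancers after MNU and 3 after PhIP, all H-ras nonmutated), and these 7 arrays were used to ask whether a difference between the chemicals was also present there. The other 21 arrays covered H-ras mutated cancers, cancers after radiation alone, spontaneous cancers and normal mammary tissue. Whether every array stands for a separate animal is not stated, so p-values rest on the spread between samples, and no batch or date is given in the labels. This spread was pooled over every group of the series, normal tissue included. For a gene that varied more in the compared cancers than elsewhere, the standard error can therefore be smaller than these cancers alone would give.

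Values are log2(intensity + 42.8), where intensity is the deposited signal of a probe set, and 11773 genes were tested with limma, with adjusted p under 0.05 as the threshold. Median intensities were 195.9 to 211.6 after radiation plus MNU and 192.1 to 209.8 after radiation plus PhIP. Ratios of 3' to 5' signal, a measure of RNA quality, were 2.095 to 2.557 after radiation plus MNU and 2.062 to 2.37 after radiation plus PhIP for hexokinase, and 1.235 to 1.525 after radiation plus MNU and 1.258 to 1.397 after radiation plus PhIP for actin. Luminal epithelial markers, which define the tissue, were high in all 8 cancers, with list means of 10.98 to 11.58 after radiation plus MNU and 11.19 to 11.32 after radiation plus PhIP. Radiation plus MNU 2 stood apart from the other 3 of its group, with a mean correlation of 0.927 with them and a mean of the mast cell markers of 11.11, against 7.03 to 7.67 in the other 3. Among the radiation plus PhIP cancers, number 4 had a mast cell mean of 9.96 and the others 7.29 to 7.60. Radiation plus MNU 4 had the highest means of its group for adipocyte (8.63), skeletal muscle (8.72) and B and plasma cell markers (9.47). Radiation plus PhIP 1 had a B and plasma cell mean of 10.23, against 8.64 to 8.89 in its group. In bulk tissue, fewer cells of a type and less RNA per cell cannot be told apart.

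No gene passed the threshold between radiation plus MNU and radiation plus PhIP with limma (0% of 11773 genes). The smallest adjusted p was 0.138. An unadjusted p under 0.05 was found for 944 genes (8.02%), of which 426 had higher means after radiation plus MNU (3.62%) and 518 had lower means (4.4%), where 589 would be counted if the p-values were uniform. In 270 genes all 4 radiation plus MNU cancers lay above all 4 radiation plus PhIP cancers (2.29%), and in 391 they all lay below (3.32%), together 661 genes (5.61%). The differences were mostly small, with 107 genes combining an unadjusted p under 0.05 with a difference of at least 2-fold, 67 of them higher and 40 lower after radiation plus MNU. The median difference over all genes was −0.02. The mean correlation between 2 cancers of different groups, 0.941, was as high as that within radiation plus MNU (0.940), while within radiation plus PhIP it was 0.956.

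The 24 genes described next are the 12 with the smallest p in each direction, and their adjusted p-values lay between 0.138 and 0.179, so none is a call. Since these genes were chosen by this contrast, their separation here is a description. The groups did not overlap in 11 of the 12 with higher and in all 12 with lower values after radiation plus MNU, where 2.29% and 3.32% of all genes did not overlap in each direction, a share that the choice of genes raises. Fgf3 counts among the 11 although radiation plus MNU 2 exceeded the highest radiation plus PhIP value only within background (5.58 against 5.56).

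**Figure D1:**
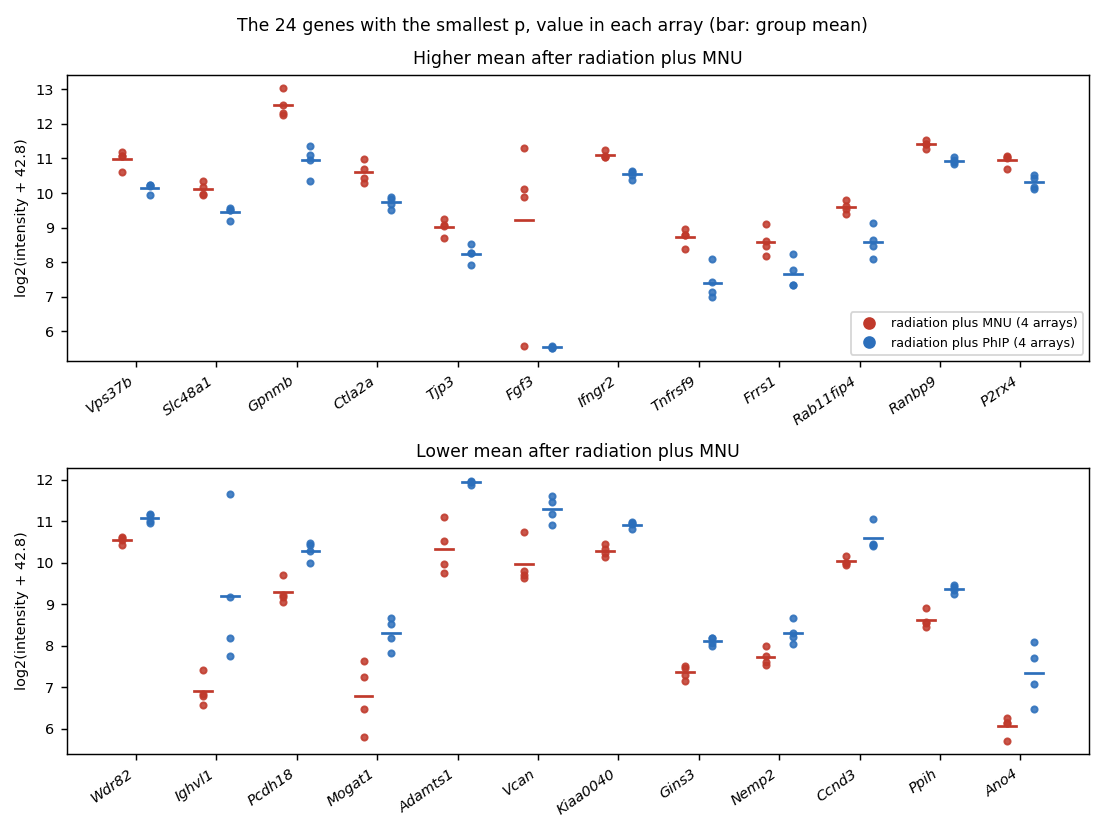
Values in each array, as log2(intensity + 42.8), of the 12 genes with the smallest p and a higher mean after radiation plus MNU (upper panel) and of the 12 with a lower mean (lower panel), with radiation plus MNU in red to the left and radiation plus PhIP in blue to the right of each name and bars for group means. In most genes the group means differ by 0.5 to 2 units, while the nearest single values of the groups lie closer, and the groups overlap in Frrs1. The 4 radiation plus MNU values of Fgf3 spread from 5.58 to 11.31.

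Among the genes with higher values after radiation plus MNU, Gpnmb, which encodes a membrane glycoprotein abundant in macrophages that handle lipid and debris, measured 12.27, 12.54, 12.32 and 13.05 after radiation plus MNU and 10.97, 11.37, 10.34 and 11.09 after radiation plus PhIP. All 4 radiation plus MNU cancers were above every radiation plus PhIP cancer. The difference was 1.60 ± 0.36 (SE), 3.04-fold (limma adjusted p = 0.179). The highest value belonged to radiation plus MNU 4, one of the 2 cancers with the highest macrophage means.

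Fgf3 encodes a fibroblast growth factor that was first found as a site of mammary tumour virus insertion in mice. It measured 10.11, 5.58, 11.31 and 9.88 after radiation plus MNU and 5.52, 5.51, 5.56 and 5.53 after radiation plus PhIP. Thus 3 of 4 radiation plus MNU cancers had a strong signal, and radiation plus MNU 2 was as low as the radiation plus PhIP group, whose intensities of 2.78 to 4.29 lie under the added constant. The difference was 3.69 ± 0.88 (adjusted p = 0.179), beside an SD of 2.505 after radiation plus MNU and 0.02 after radiation plus PhIP. Its size is set in part by that constant and gives no exact fold, since with a constant of 1 it was 6.315. Without radiation plus MNU 2 it was 4.90, with adjusted p = 0.00477, and Fgf3 was then the only gene past the threshold. Strong signals were not confined to this group, since 2 of 3 spontaneous cancers measured 9.56 and 9.77 and PhIP 3, from a rat without radiation, measured 10.83.

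Vps37b, a subunit of the ESCRT-I complex that sorts membrane proteins for degradation, measured 11.07, 10.61, 11.07 and 11.19 after radiation plus MNU, against 9.93, 10.23, 10.23 and 10.19 after radiation plus PhIP. The groups did not overlap, and the difference was 0.84 ± 0.17 (adjusted p = 0.179). Slc48a1, the heme transporter of lysosomes, measured 9.98, 10.34, 9.95 and 10.19 after radiation plus MNU, against 9.20, 9.58, 9.52 and 9.50 after radiation plus PhIP (0.67 ± 0.14).

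Receptors of immune signalling were also among these genes. Tnfrsf9, the costimulatory receptor 4-1BB of activated lymphocytes, measured 8.79, 8.96, 8.78 and 8.38 after radiation plus MNU and 7.12, 6.98, 7.44 and 8.08 after radiation plus PhIP, a difference of 1.32 ± 0.32. The groups came closest between radiation plus MNU 4 and radiation plus PhIP 4. Ifngr2, a chain of the interferon gamma receptor, measured 11.05, 11.06, 11.26 and 11.05 after radiation plus MNU and 10.38, 10.65, 10.51 and 10.62 after radiation plus PhIP (0.57 ± 0.14). P2rx4, an ATP-gated ion channel, differed by 0.64 ± 0.16, with values of 10.68 to 11.08 after radiation plus MNU and 10.13 to 10.53 after radiation plus PhIP.

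Tjp3, which encodes the tight junction scaffold ZO-3, measured 9.03, 8.70, 9.25 and 9.06 after radiation plus MNU and 8.51, 8.27, 8.27 and 7.93 after radiation plus PhIP. All radiation plus MNU values were the higher ones, by 0.76 ± 0.18 on average. Ctla2a, which in mice encodes an inhibitor of cathepsin L-like proteases, differed by 0.87 ± 0.20 (10.28 to 10.99 after radiation plus MNU, 9.52 to 9.87 after radiation plus PhIP). Rab11fip4, an effector of the recycling endosome GTPase Rab11, differed by 1.02 ± 0.25. The last of the 12 were Ranbp9, a scaffold protein (0.47 ± 0.12), and Frrs1, a ferric reductase family member (0.92 ± 0.23), in which radiation plus MNU 2 at 8.17 lay below radiation plus PhIP 4 at 8.24.

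The smallest p in the comparison belonged to a gene with lower values after radiation plus MNU. Wdr82, a subunit of the complexes that methylate lysine 4 of histone H3, measured 10.44, 10.56, 10.63 and 10.60 after radiation plus MNU and 11.14, 10.999, 10.96 and 11.17 after radiation plus PhIP. Both groups were tight (SD 0.09 and 0.10) and did not overlap, with a difference of −0.51 ± 0.10, or 0.702-fold (adjusted p = 0.138).

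A pair of matrix genes that work together stood in the same direction. Vcan, the large proteoglycan versican of loose matrix, measured 9.70, 10.75, 9.64 and 9.81 after radiation plus MNU and 11.62, 10.91, 11.45 and 11.16 after radiation plus PhIP (−1.31 ± 0.32, adjusted p = 0.179). Radiation plus MNU 2 came nearest to the other group. Adamts1, a secreted protease that cleaves versican, measured 11.11, 9.75, 9.97 and 10.53 after radiation plus MNU, against 11.95, 11.96, 11.88 and 11.98 after radiation plus PhIP (−1.60 ± 0.39). Its values were almost equal in the 4 radiation plus PhIP cancers and lower and scattered in the radiation plus MNU cancers. Pcdh18, a protocadherin of cell adhesion, differed by −1.01 ± 0.23, with 9.04 to 9.71 after radiation plus MNU and 9.998 to 10.47 after radiation plus PhIP.

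Ighvl1, an immunoglobulin variable segment in the RefSeq gene table, measured 6.79, 6.84, 6.57 and 7.42 after radiation plus MNU and 11.65, 7.76, 8.19 and 9.17 after radiation plus PhIP. The difference of −2.29 ± 0.51 was −1.47 without radiation plus PhIP 1, the cancer with the highest B and plasma cell mean. Mogat1, which makes diacylglycerol from monoacylglycerol, measured 7.24, 6.49, 5.81 and 7.62 after radiation plus MNU and 8.18, 7.83, 8.66 and 8.53 after radiation plus PhIP (−1.51 ± 0.35). The groups of both genes did not overlap.

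Genes of the cell division machinery were part of this set as well. Ccnd3, cyclin D3, measured 10.001, 9.96, 10.01 and 10.17 after radiation plus MNU, against 11.05, 10.42, 10.45 and 10.42 after radiation plus PhIP (−0.55 ± 0.14). Gins3, a subunit of the replicative helicase, measured 7.15 to 7.52 after radiation plus MNU and 7.99 to 8.19 after radiation plus PhIP (−0.75 ± 0.19). The remaining genes with lower values were Ppih, a cyclophilin of the spliceosome (−0.74 ± 0.19), the nuclear envelope gene Nemp2 (−0.59 ± 0.15), Kiaa0040 (−0.63 ± 0.16) and the anoctamin Ano4 (−1.27 ± 0.32), whose radiation plus MNU values of 5.71 to 6.27 were near background.

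Of these 24 genes, 5 had further probe sets that passed the filter, all differing in the same direction as the one used but not by the same amount. The difference was 1.23 for Vps37b, 0.47 for Ifngr2, −0.57 to −1.14 for 3 probe sets of Vcan, −0.29 for Kiaa0040 and −0.06 for Ppih, which was near 0.

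To describe pathways and cell types, 33 gene lists with 528 members were followed, of which 445 members were measured. None of the members passed the threshold, so the counts below are of members with an unadjusted p under 0.05, beside 3.62% of all genes in the higher and 4.4% in the lower direction, and medians stand beside the −0.02 of all genes. Counts of higher or lower means stand beside 5470 genes with higher and 6303 with lower means after radiation plus MNU, of 11773 in all.

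**Figure D2:**
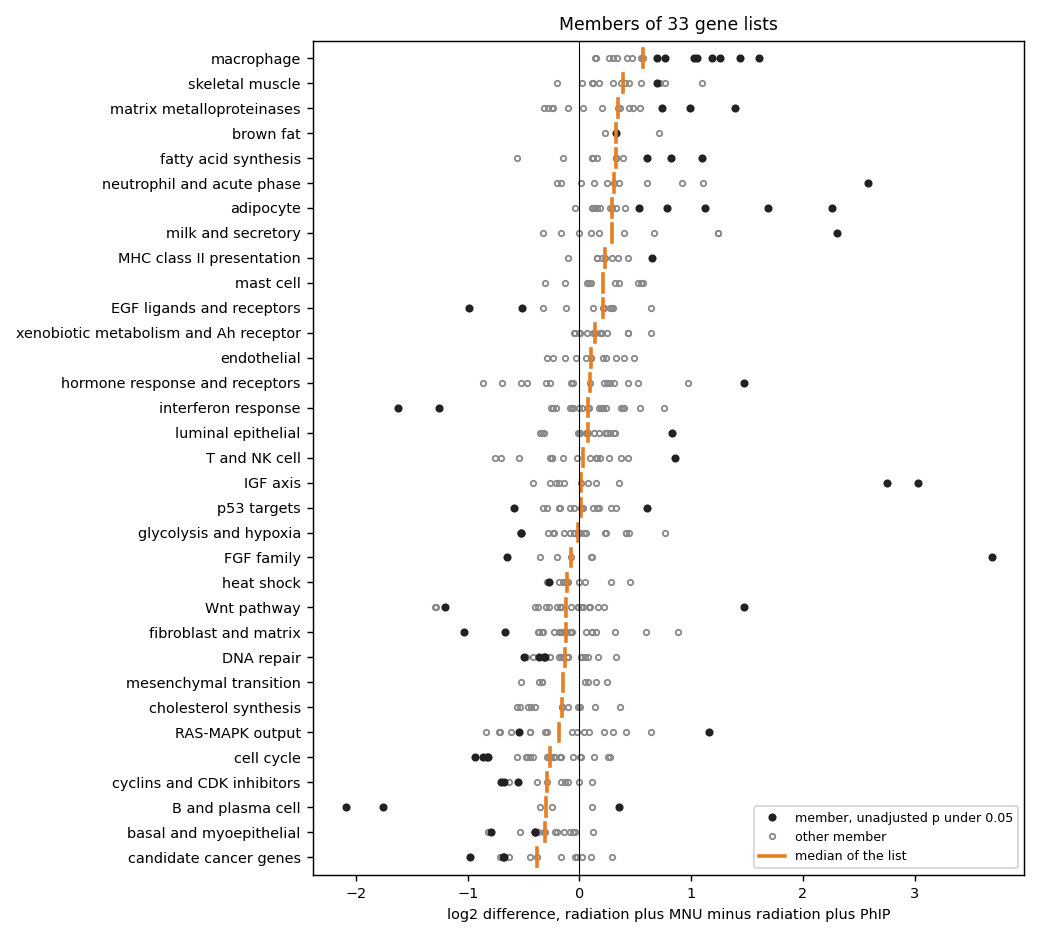
Log2 difference, radiation plus MNU minus radiation plus PhIP, of every measured member of 33 gene lists, ordered by the list median (orange bar), with filled points for members with an unadjusted p under 0.05. All macrophage members lie to the right of 0, and most basal and myoepithelial, cell cycle and candidate cancer gene members lie to the left.

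Macrophage markers had the highest list median, 0.57, and all 17 measured members had higher means after radiation plus MNU. An unadjusted p under 0.05 was reached by 8 of 17, namely the scavenger receptors Cd163 and Mrc1, the complement genes C1qa, C1qb and C1qc, the lysosomal Cd68, the integrin Itgam and Gpnmb. Cd163 measured 9.00, 9.43, 7.33 and 8.48 after radiation plus MNU and 7.35, 6.75, 6.69 and 7.71 after radiation plus PhIP, a difference of 1.44 ± 0.49 (limma adjusted p = 0.471). Radiation plus MNU 3 lay within the radiation plus PhIP range and the other 3 above it. C1qc, a chain of the complement component C1q made by macrophages, measured 11.60, 12.41, 10.82 and 12.08 after radiation plus MNU, against 10.28, 11.05, 10.42 and 11.07 after radiation plus PhIP (1.02 ± 0.34, adjusted p = 0.439).

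The array means of the macrophage list were 10.45, 10.998, 9.96 and 11.06 after radiation plus MNU and 9.66, 10.10, 9.67 and 10.17 after radiation plus PhIP, so that only radiation plus MNU 3 was below the highest cancers of the other group. Summed on the intensity scale, the 17 markers gave 33854 to 55653 after radiation plus MNU and 23468 to 30815 after radiation plus PhIP, with no overlap. The count of 8 depended on single cancers. It was 4 without radiation plus MNU 2, which is also the cancer with the high mast cell signal, 5 without radiation plus PhIP 3 and 13 without radiation plus MNU 3. Members of a list share the same tissue pieces, and 17 markers are not 17 independent observations.

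**Figure D3:**
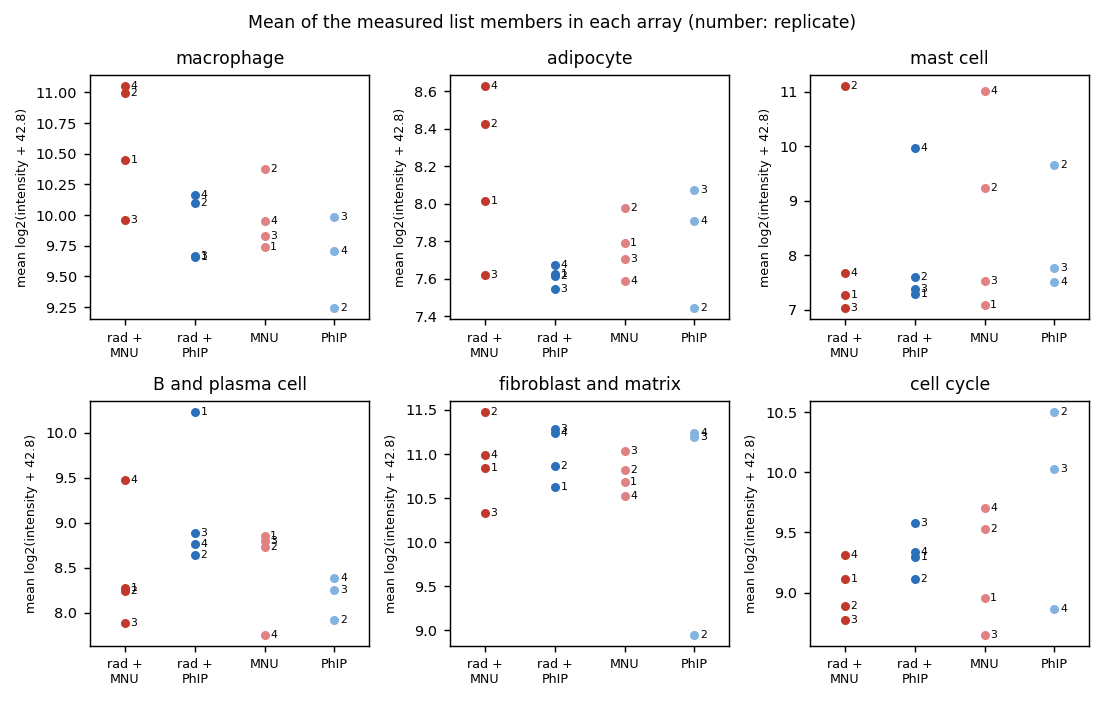
Mean log2(intensity + 42.8) of the measured members of 6 gene lists in each array of the 4 groups of H-ras nonmutated cancers after MNU or PhIP, with and without radiation (rad), the number beside each point being the replicate. Macrophage means reach 11.06 after radiation plus MNU, mast cell means are high in single cancers of every group, and the adipocyte means of the radiation plus PhIP cancers are close together, from 7.54 to 7.67.

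Adipocyte markers followed a similar pattern, with higher means for 14 of 15 members, 5 with an unadjusted p under 0.05 and a median of 0.29. Cd36, a fatty acid transporter of fat cells that macrophages also carry, measured 8.87, 9.97, 7.33 and 11.24 after radiation plus MNU and 6.95, 6.38, 7.32 and 7.71 after radiation plus PhIP (2.26 ± 0.60, 4.8-fold, adjusted p = 0.244). Fabp4, a fatty acid binding protein of both cell types, measured 7.30, 10.004, 6.95 and 9.67 after radiation plus MNU, against 6.68, 6.56, 7.07 and 6.86 after radiation plus PhIP (1.69 ± 0.52, adjusted p = 0.386). In both genes radiation plus MNU 2 and 4 were far above the radiation plus PhIP cancers, and radiation plus MNU 3 was not.

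The lipase Pnpla2, which starts the breakdown of stored fat, was more even, with 11.35, 10.88, 10.88 and 11.59 after radiation plus MNU and 10.38, 10.32, 10.41 and 10.46 after radiation plus PhIP (0.78 ± 0.22). Array means of the list ran from 7.62 to 8.63 after radiation plus MNU and from 7.54 to 7.67 after radiation plus PhIP, and summed intensities of the 15 markers were 6546 to 13753 after radiation plus MNU and 5600 to 6280 after radiation plus PhIP, with no overlap. These sums rest largely on strong members such as Pnpla2 and Lpl (mean 11.58 after radiation plus MNU, 11.45 after radiation plus PhIP). Adipoq, the hormone adiponectin, and Plin1, the coat of lipid droplets, were added after their values were seen because they define mature fat cells. They differed by 0.14 ± 0.23 and 0.19 ± 0.23. Both signals were weak, with group means of 7.07 and 6.93 for Adipoq and 6.97 and 6.79 for Plin1. Without radiation plus MNU 4, whose skeletal muscle markers were also high, 3 adipocyte markers instead of 5 had an unadjusted p under 0.05. The part of fat or muscle left around the tumour in these differences was not tested.

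Genes of fatty acid synthesis, which mammary epithelium shares with fat, had higher means for 12 of 14 members and a median of 0.32. The 3 with an unadjusted p under 0.05 were Srebf1, the transcription factor that drives the pathway, the elongase Elovl5 and Thrsp. Elovl5 measured 11.97, 11.88, 12.13 and 12.85 after radiation plus MNU and 11.58, 11.49, 11.59 and 11.74 after radiation plus PhIP (0.61 ± 0.19, adjusted p = 0.409), or 0.395 without radiation plus MNU 4. The groups did not overlap. Srebf1 differed by 0.82 ± 0.26, with 11.95 to 12.88 after radiation plus MNU and 11.14 to 12.18 after radiation plus PhIP. Cholesterol synthesis genes did not share this direction, with lower means for 9 of 12 members and none with an unadjusted p under 0.05.

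Other immune lists were uneven. T and NK cell markers were split evenly, 8 higher and 8 lower, with a median of 0.03, and 1 had an unadjusted p under 0.05. Among 22 genes of the interferon response the median was 0.08, but the chemokines Cxcl9 and Cxcl11, which attract T cells, had lower values after radiation plus MNU with an unadjusted p under 0.05. Cxcl11 measured 8.13, 6.84, 7.58 and 8.54 after radiation plus MNU and 9.65, 9.73, 8.98 and 9.22 after radiation plus PhIP (−1.63 ± 0.45, adjusted p = 0.268), with no overlap. For Ifngr2, by contrast, the values after radiation plus MNU were the higher ones.

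Plasma cell genes varied widely between single cancers. Jchain, the joining chain of secreted antibodies, measured 7.59, 8.40, 6.74 and 12.39 after radiation plus MNU and 12.15, 9.96, 11.06 and 10.31 after radiation plus PhIP (−2.09 ± 0.93), or −3.295 without radiation plus MNU 4. A second probe set of the gene differed by −0.90. The highest of all 8 values was that of radiation plus MNU 4, and the other 3 of its group were the lowest. Pou2af1, a B cell coactivator, measured 6.41, 6.14, 5.65 and 7.54 after radiation plus MNU, against 10.73, 6.64, 7.36 and 8.03 after radiation plus PhIP (−1.75 ± 0.47, adjusted p = 0.244), and −0.91 without radiation plus PhIP 1. The whole list of 6 measured markers had 2 with higher and 4 with lower means, and its summed intensities overlapped (8809 to 17218 after radiation plus MNU, 9123 to 15082 after radiation plus PhIP). The part of plasma cells in the values of Ighvl1, Jchain and Pou2af1 was not tested.

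No mast cell marker of the 10 measured had an unadjusted p under 0.05, although single cancers differed far more than the groups did. Saa3, an acute phase protein in the list of neutrophil and acute phase genes, measured 8.00, 8.44, 11.04 and 12.59 after radiation plus MNU and 7.66, 7.32, 7.88 and 6.89 after radiation plus PhIP (2.58 ± 1.09, adjusted p = 0.58). It was highest in radiation plus MNU 4 and 3, and the groups did not overlap. It was the only one of 11 members with an unadjusted p under 0.05. Plaur, the urokinase receptor, measured 8.01, 8.34, 7.52 and 8.05 after radiation plus MNU, against 7.37, 7.02, 7.10 and 7.49 after radiation plus PhIP (0.74 ± 0.21). With its ligand Plau and the stromal protease Mmp11 it made up the 3 of 15 genes of matrix proteolysis with a higher mean and an unadjusted p under 0.05. Its probe set is of a kind that can bind several transcripts.

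Most genes of cell proliferation pointed the other way. Of 24 cell cycle genes, 19 had lower means after radiation plus MNU, with a median of −0.26, and 4 had an unadjusted p under 0.05. These were Ccne2, a cyclin of the entry into S phase, and Mcm2, Mcm4 and Mcm6, subunits of the helicase that licenses replication origins. The 5 with higher means were genes of mitosis, Ccnb1 (0.02), Ccnb2 (0.27), Aurka (0.26), Aurkb (0.13) and Plk1 (0.004). Other genes of mitosis, such as Bub1 (−0.44), had lower means. Mcm4 measured 9.30, 8.62, 9.03 and 10.01 after radiation plus MNU and 10.30, 9.94, 10.39 and 10.08 after radiation plus PhIP (−0.94 ± 0.30, adjusted p = 0.409). Mcm2 measured 9.35, 9.12, 9.15 and 9.74 after radiation plus MNU, against 10.08, 10.18, 10.35 and 10.04 after radiation plus PhIP (−0.82 ± 0.29), with no overlap. Radiation plus MNU 4 was nearest to the radiation plus PhIP cancers in both genes.

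Mcm6 differed by −0.86 ± 0.33. The count of 4 was 7 without radiation plus MNU 4 and 2 without radiation plus MNU 2. The array means of the list overlapped, with 8.77 to 9.31 after radiation plus MNU and 9.12 to 9.58 after radiation plus PhIP. Of 11 cyclins and CDK inhibitors, 3 had lower values with an unadjusted p under 0.05, namely Ccnd1, Ccnd3 and the transcription factor E2f1, while cyclin D2, Ccnd2, differed by −0.29 ± 0.78. Ccnd1, cyclin D1, measured 12.34, 11.29, 12.06 and 12.48 after radiation plus MNU and 12.63, 12.83, 12.85 and 12.56 after radiation plus PhIP (−0.68 ± 0.27, adjusted p = 0.564), or −0.43 without radiation plus MNU 2. The tumour suppressor Cdkn2a, an inhibitor of the kinases that these cyclins activate, overlapped between groups (8.06 to 9.18 after radiation plus MNU, 8.29 to 10.14 after radiation plus PhIP, −0.63 ± 0.60, or −0.30 without radiation plus PhIP 3).

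Basal and myoepithelial markers had lower means after radiation plus MNU for 14 of 15 members, with a median of −0.31. The 3 with an unadjusted p under 0.05 were the keratins Krt5 and Krt17 and the hemidesmosome integrin Itgb4. Krt17 measured 10.14, 9.77, 10.13 and 9.79 after radiation plus MNU, against 10.39, 11.01, 10.53 and 11.07 after radiation plus PhIP (−0.79 ± 0.25, adjusted p = 0.411), with no overlap. Luminal markers had a median of 0.08, with higher means for 12 of 17 and 1 member, Muc1, with an unadjusted p under 0.05. Milk genes had a median of 0.29 and varied widely among cancers. The whey protein Wap measured 11.94, 11.01, 13.08 and 13.43 after radiation plus MNU and 12.69, 5.91, 11.81 and 9.84 after radiation plus PhIP (2.30 ± 1.11), a difference that was 0.92 without radiation plus PhIP 2.

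Of 13 candidate cancer genes, 10 had lower means after radiation plus MNU, and their median of −0.38 was the lowest of the 33 lists. The 3 with an unadjusted p under 0.05 were the transcription factor Mycn, the cyclin Ccnd1 and the receptor Notch1. This list shares Ccnd1, Rb1, Cdkn2a and Cdkn2b with that of cyclins and CDK inhibitors, so the 2 are not separate results. Of 20 Wnt pathway genes, Wnt4, a ligand that progesterone induces in mammary epithelium, measured 10.41, 11.53, 10.72 and 10.79 after radiation plus MNU and 9.08, 9.45, 9.26 and 9.76 after radiation plus PhIP (1.48 ± 0.43, 2.78-fold, adjusted p = 0.308). Lef1, a transcription factor that carries out Wnt signals, measured 10.12, 10.14, 10.41 and 9.77 after radiation plus MNU, against 11.25, 11.01, 11.41 and 11.58 after radiation plus PhIP (−1.20 ± 0.40, adjusted p = 0.428). The groups were separate in both genes, in opposite directions, and the median of the list was −0.12. Notch1, the receptor, measured 10.62, 10.27, 10.52 and 9.63 after radiation plus MNU, against 10.78, 11.27, 10.88 and 10.83 after radiation plus PhIP (−0.68 ± 0.20).

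The imprinted neighbours Igf2, a fetal growth factor, and H19, a noncoding RNA, had 2 of the largest differences. Igf2 measured 13.28, 12.84, 12.91 and 13.42 after radiation plus MNU and 8.09, 9.65, 12.54 and 11.14 after radiation plus PhIP (2.75 ± 1.18, adjusted p = 0.583). H19 measured 13.04, 11, 12.68 and 12.18 after radiation plus MNU and 8.07, 7.58, 10.57 and 10.58 after radiation plus PhIP (3.02 ± 1.15, adjusted p = 0.523). Igf2 was evenly high in the radiation plus MNU cancers, while H19 in radiation plus MNU 2 lay nearest to radiation plus PhIP 3 and 4. In both genes radiation plus PhIP 1 and 2 were the 2 lowest. The other 9 genes of the IGF axis had no unadjusted p under 0.05. RAS-MAPK output included Spry4, a feedback inhibitor of the pathway, which had lower values after radiation plus MNU (9.30 to 9.78, against 9.96 to 10.25 after radiation plus PhIP, −0.54 ± 0.14), and the immediate early gene Ier3, which had higher ones (11.75 to 12.59, against 10.67 to 11.18, 1.16 ± 0.31). The median of the 18 measured genes was −0.18.

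For genes that act on the 2 chemicals or their lesions, none of 13 measured members of the xenobiotic metabolism list had an unadjusted p under 0.05, and their median was 0.14. Cyp1b1, a P450 enzyme under control of the aryl hydrocarbon receptor, measured 10.14, 9.37, 9.03 and 8.57 after radiation plus MNU and 7.64, 7.89, 8.87 and 10.14 after radiation plus PhIP. The groups overlapped, and the difference was 0.64 ± 0.64 (adjusted p = 0.872). It was 1.14 without radiation plus PhIP 4 and 0.31 without radiation plus PhIP 1. Ahr itself differed by 0.20 ± 0.18, a difference of −0.03 without radiation plus PhIP 1, and the quinone reductase Nqo1 differed by 0.43 ± 0.37, or 0.03 without radiation plus MNU 2. A second probe set of Ahr differed by 0.01. Cyp1a1 and Cyp1a2 did not reach the filter on low values and were not tested. The rats had been exposed at 7 weeks of age, before the cancers arose, and these values describe the cancers.

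Mgmt measured 8.50, 8.28, 8.26 and 8.23 after radiation plus MNU, against 8.92, 8.38, 9.04 and 8.84 after radiation plus PhIP (−0.48 ± 0.29, adjusted p = 0.728), and only radiation plus PhIP 2 lay within the range of the radiation plus MNU cancers. Of 20 DNA repair genes, 13 had lower means after radiation plus MNU, with a median of −0.13, and 4 had an unadjusted p under 0.05. These were the ligase Lig1, the base excision genes Apex1 and Ogg1 and the mismatch repair gene Msh6. Lig1, which joins DNA in replication and repair, measured 9.28, 9.22, 9.02 and 9.55 after radiation plus MNU, against 9.69, 9.68, 9.95 and 9.74 after radiation plus PhIP (−0.49 ± 0.15, adjusted p = 0.386), with no overlap, and a second probe set of it differed by −0.13. Of 15 p53 targets, 1 was higher and 1 lower with an unadjusted p under 0.05, and the median was 0.01.

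Of 17 measured genes of hormone response and hormone receptors, 1 (Wnt4) had an unadjusted p under 0.05, and the median was 0.09. The groups did not overlap in 2 members with higher and 1 with lower values after radiation plus MNU, beside 2.29% and 3.32% of all genes. The insulin receptor Insr was one of those with higher values (8.59, 8.86, 8.65 and 8.70 after radiation plus MNU, 8.45, 8.24, 8.43 and 8.43 after radiation plus PhIP, 0.31 ± 0.17). The oestrogen receptor Esr1 measured 5.91 to 7.39 after radiation plus MNU and 5.89 to 7.85 after radiation plus PhIP (−0.07 ± 0.41), and its sign changed with single cancers. The progesterone receptor Pgr measured 8.66, 7.81, 9.49 and 10.09 after radiation plus MNU, against 8.50, 8.68, 8.48 and 8.29 after radiation plus PhIP (0.53 ± 0.52). The Pgr difference was 0.17 without radiation plus MNU 4 and 0.93 without radiation plus MNU 2. The prolactin receptor Prlr (0.43 ± 0.52) and the receptor ligand Areg (0.28 ± 0.35), both abundant in these cancers at 11.5 or more in all 8, did not pass either. Leaving out 1 cancer gave 0.22 to 0.70 for Prlr and 0.10 to 0.52 for Areg. Further probe sets of Prlr that passed the filter differed by 0.74 and 0.72.

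The same chemicals without radiation gave a second contrast that shares no array with the first, although both draw their error from the same fit. MNU against PhIP gave 0 genes past the threshold with limma (0%, smallest adjusted p 0.39) and 971 with an unadjusted p under 0.05 (8.25%), 480 higher (4.08%) and 491 lower (4.17%) after MNU. MNU 4 had a hexokinase ratio of 12.25, where the other MNU cancers had 2.265 to 2.48. Without PhIP 2 the count of 971 was 450, and without PhIP 4 it was 1505. The count past the threshold was 2 without MNU 4 and 1 without MNU 1.

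Over all genes the sign of the difference was the same in both contrasts for 50.5%. Of the 24 leading genes, 10 had the same sign (41.7%). An unadjusted p under 0.05 in the same direction was reached without radiation by 5 of the 24, namely Ctla2a, Ifngr2, Rab11fip4, P2rx4 and Ccnd3, where 3.86% of all genes had the same sign and such a p. In the opposite direction such a p was also reached by 5 of the 24, namely Slc48a1, Tjp3, Fgf3, Mogat1 and Kiaa0040. Among all genes 8.25% had such a p without radiation with either sign, a share that includes the 3.86% with the same sign. Rab11fip4 measured 9.15, 10.06, 9.24 and 10.003 after MNU and 8.68, 8.74 and 8.79 after PhIP, a difference of 0.88 ± 0.27, beside the 1.02 ± 0.25 with radiation. Ctla2a measured 9.91, 10.94, 10.09 and 10.83 after MNU and 9.22, 9.94 and 9.96 after PhIP (0.74 ± 0.21, beside 0.87 ± 0.20). All 4 MNU cancers lay above the PhIP cancers in Rab11fip4, and MNU 1 lay within their range in Ctla2a.

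**Figure D4:**
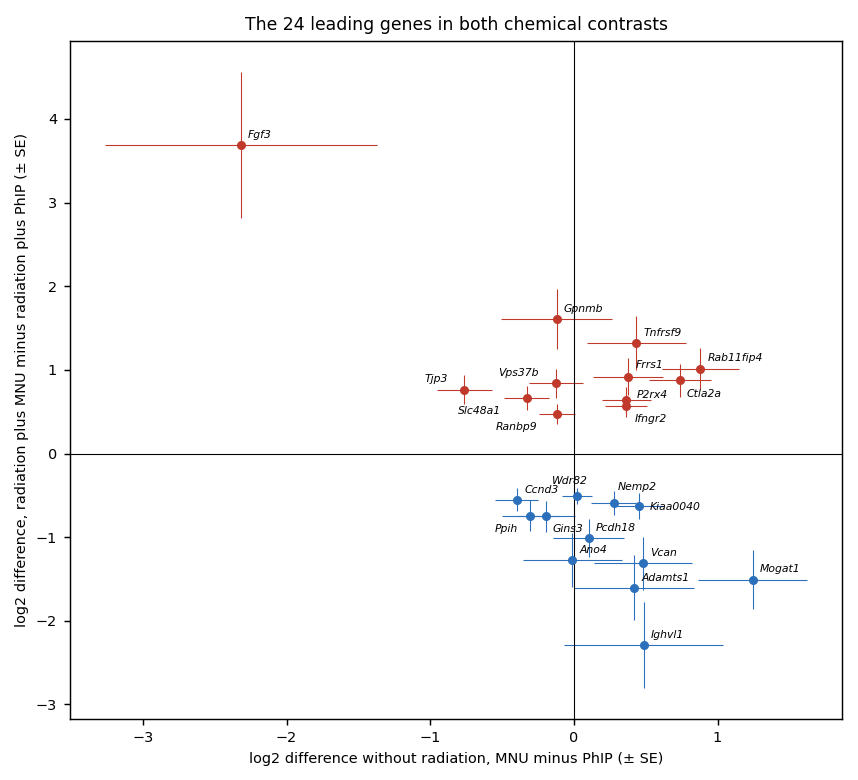
Log2 difference of the 24 leading genes after radiation plus MNU against radiation plus PhIP (vertical axis) and after MNU against PhIP without radiation (horizontal axis), each with its SE, in red for genes with higher and in blue for genes with lower values in the first contrast. Ctla2a and Rab11fip4 lie in the upper right, Tjp3 and Fgf3 in the upper left and Mogat1 in the lower right.

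The mean of both contrasts over all 15 H-ras nonmutated cancers gave 0 genes past the threshold (0%) and 996 with an unadjusted p under 0.05 (8.46%), 470 higher (3.99%) and 526 lower (4.47%) after MNU. Its smallest adjusted p, 0.0677, was shared by Ctla2a (0.81 ± 0.15), Rab11fip4 (0.95 ± 0.18) and Cln8, a membrane protein of the endoplasmic reticulum. Ifngr2 and Ccnd3 followed at 0.0987, with mean differences of 0.46 ± 0.10 and −0.47 ± 0.10. Ccnd3 measured 10.29, 9.92, 10.44 and 9.80 after MNU and 10.50, 10.61 and 10.41 after PhIP. The macrophage markers had a median of 0.40 without radiation, with 15 of 17 higher after MNU and 1 with an unadjusted p under 0.05. Gpnmb was not among the 15, with a difference of −0.12 without radiation (10.57, 11.94, 10.94 and 11.95 after MNU, 11.92, 11.28 and 11.21 after PhIP). Cell cycle genes had a median of −0.65 there, with 24 of 24 lower after MNU and 6 with an unadjusted p under 0.05. Their array means were 8.96, 9.53, 8.65 and 9.70 after MNU and 10.50, 10.03 and 8.86 after PhIP, so that the groups overlapped and PhIP 4 lay below 3 of the 4 MNU cancers. The count of 6 rested on single cancers. It was 0 without MNU 3, PhIP 2 or PhIP 3, 1 without MNU 1 and 17 without PhIP 4, and without PhIP 2 the median was −0.27. Adipocyte (0.02) and basal markers (0.12) had medians without radiation that were near 0 or of the other sign. The same held for fatty acid synthesis (−0.10), candidate cancer genes (−0.04), DNA repair (−0.03), cyclins and CDK inhibitors (−0.03) and milk genes (−0.45). Luminal markers had a median of −0.37 there, with 5 of 17 lower after MNU at an unadjusted p under 0.05, beside 4.17% of all genes. Cholesterol synthesis kept its direction (−0.31).

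A direct test of whether the chemical contrast differed with radiation called 1 gene, Tjp3 (0.00849% of genes), while 950 had an unadjusted p under 0.05 (8.07%), 425 with a more positive difference under radiation (3.61%) and 525 with a more negative one (4.46%). Without radiation Tjp3 measured 8.32, 8.25, 8.33 and 7.86 after MNU and 9.20, 8.90 and 8.75 after PhIP, a difference of −0.76 ± 0.19, where with radiation it was 0.76 ± 0.18. The groups did not overlap in either contrast, and the order was opposite. The difference of the contrasts was 1.52 ± 0.26 (limma adjusted p = 0.0262). The call did not hold in every fit. Over the 15 cancers left out 1 at a time the adjusted p ranged from 0.00661 to 0.212, and without PhIP 2 it was 0.212. It was 0.0545 with the hexokinase ratio and 0.0781 with the actin ratio as a covariate. The count of 1 gene was 0 without radiation plus MNU 1 or 3, radiation plus PhIP 3 or 4, MNU 2 or PhIP 2 or 3. It was 2 without radiation plus MNU 2 or 4 or radiation plus PhIP 2, 7 without PhIP 4 and 12 without MNU 4.

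Other genes had opposite differences in the 2 contrasts without passing this test. Mogat1 measured 8.40, 8.06, 8.85 and 7.27 after MNU and 6.74, 6.86 and 7.10 after PhIP without radiation, a difference of 1.25 ± 0.38, against −1.51 ± 0.35 with radiation (difference of the contrasts −2.75 ± 0.52, adjusted p = 0.0587). Sema3b, a secreted semaphorin, measured 11.52, 11.68, 11.81 and 9.98 after MNU and 7.53, 9.51 and 10.14 after PhIP (2.18 ± 0.53). With radiation it measured 10.21, 10.04, 9.30 and 10.27 after MNU and 11.53, 11.06, 11.45 and 11.68 after PhIP (−1.47 ± 0.49, difference of the contrasts −3.66 ± 0.73, adjusted p = 0.0702). MNU 4 lay apart from the other MNU cancers in Sema3b and below PhIP 4.

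Plaur (difference of the contrasts 1.52 ± 0.31, adjusted p = 0.0702), Fgf3 (6.01 ± 1.29), Slc48a1 (1.00 ± 0.21) and Kiaa0040 (−1.08 ± 0.23, the last 3 at 0.0945) were the next in order among the genes described here, the size for Fgf3 again depending on the added constant. Lef1 had 10.84, 10.59, 10.56 and 9.15 after MNU and 7.45, 9.27 and 10.37 after PhIP, 1.25 ± 0.43 without radiation beside −1.20 ± 0.40 with it (adjusted p of the difference 0.16). Mgmt also had opposite signs, 0.65 ± 0.31 without and −0.48 ± 0.29 with radiation, and its highest value without radiation, 9.75, was that of MNU 4.

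**Figure D5:**
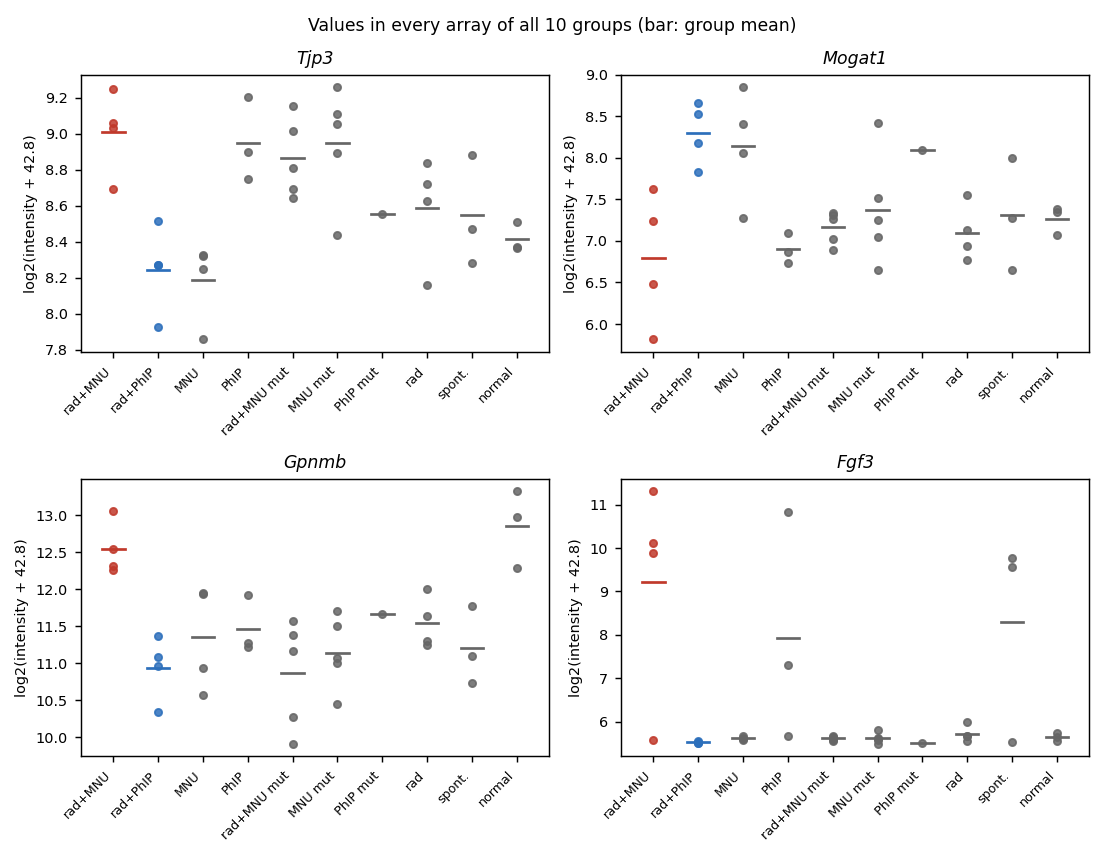
Values in each array, as log2(intensity + 42.8), of Tjp3, Mogat1, Gpnmb and Fgf3 in all 10 groups (rad, radiation; mut, H-ras mutated, all other cancers of MNU and PhIP being nonmutated; spont., spontaneous), with bars for group means. Radiation plus MNU is high and radiation plus PhIP low for Tjp3 and the reverse for Mogat1, Gpnmb is higher in normal tissue than in most cancers, and Fgf3 is near background in most groups.

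Levels in the remaining groups place these values. Tjp3 averaged 8.55 ± 0.31 (SD, n = 3) in spontaneous cancers and 8.59 ± 0.30 (SD, n = 4) after radiation alone, between the means of 9.01 ± 0.23 after radiation plus MNU and 8.25 ± 0.24 after radiation plus PhIP (SD, n = 4 each). Mogat1 averaged 7.31 ± 0.67 in spontaneous cancers and 7.10 ± 0.34 after radiation alone, also between 6.79 ± 0.80 after radiation plus MNU and 8.30 ± 0.37 after radiation plus PhIP. Gpnmb averaged 11.20 ± 0.53 in spontaneous cancers, 11.55 ± 0.35 after radiation alone and 12.86 ± 0.53 in normal tissue (SD, n = 3), so that the 12.55 ± 0.36 of the radiation plus MNU cancers was nearest to normal tissue. In H-ras mutated cancers Tjp3 measured 8.44 to 9.26 after MNU and 8.64 to 9.15 after radiation plus MNU. Mogat1 measured 6.65 to 8.42 after MNU and 6.90 to 7.34 after radiation plus MNU in these mutated cancers. Gpnmb measured 10.44 to 11.70 and 9.91 to 11.58 in the same order, below every H-ras nonmutated radiation plus MNU cancer. These levels were not tested.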

How the data were processed

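Gene expression was measured on 36 single-colour arrays hybridised with biotin-labelled cRNA, per the labels' protocols. The authors deposited 1 linear intensity per probe set and array for 31099 probe sets. The summary method was not given in the sources used here. Each array's mean without the outer 2% at each end was 500.1. Arrays carry no molecule counts, so the number of arrays limits the precision.

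Intensities were taken as log2(intensity + 42.8), the 20th percentile of all values, so differences of weak genes are understated. Probe sets over 125.8 on at least 3 arrays and with 1 symbol were kept, the one with the highest mean per symbol, which left 11773 genes. Symbols came from the platform table. No probe set carried the symbol of H-ras, which is not analysed here. limma 3.58.1 in R 4.3.3 fitted 1 mean per group to all 36 arrays, with Benjamini-Hochberg adjustment over all genes, and was tested on simulated data. Array replicate numbers were not used as a block.

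A rule gave the genes that could be described: the 12 smallest p in each direction, 3 members per list, 11 genes tied to the chemicals and hormones, and the 5 smallest p of each further contrast. Not every gene of the set is printed. Comparison, lists and printed genes were chosen with earlier results of these data known. Alternatives changed the pseudocount, filter, scaling, probe set rule, weights, covariates and samples. Omissions of single cancers behind counts of list members and behind the difference of the contrasts were added after seeing the data. Insr, Ccnd2, Lpl, Bub1 and the 5 cell cycle genes with higher means were named after their values were seen.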

Additional observations from a re-analysis of the deposited data

Results flagged for a closer look

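Among the described genes, 60 were examined in 3 groups of 4 cancers for a single value that stood far from the other 3 (a gap above Dixon's critical share of the group's range). This gave 8 of 180 groups (4.44%), where chance alone gives about 1 in 20.

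MNU 4, the array with the hexokinase ratio of 12.25, accounted for 4 of them, all as the lowest value of the MNU cancers without radiation. The tight junction gene Tjp3 measured 7.86 there, against 8.25 to 8.33 in the other 3. Lef1 measured 9.15, against 10.56 to 10.84. Plaur measured 6.06, against 7.23 to 7.34, and Sema3b measured 9.98, against 11.52 to 11.81. The part of RNA quality in these values was not tested.

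The other 4 lay in the combined treatments. Ifngr2 in radiation plus MNU 3 was 11.26, against 11.05 to 11.06. Vcan in radiation plus MNU 2 was 10.75, against 9.65 to 9.81, and this cancer also had the high mast cell signal. Vps37b in radiation plus PhIP 1 was 9.93, against 10.19 to 10.23, and Ccnd3 in the same cancer was 11.05, against 10.42 to 10.45.

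The difference between chemicals was called different with and without radiation for Tjp3, by 1.52 on the log2 scale (limma adjusted p = 0.0262). This call did not hold in every fit, with a limma adjusted p of 0.212 without PhIP 2 and 0.153 in the fit to the 22 nonmutated cancers. In the combined treatments 4 of 4 radiation plus MNU cancers lay above all radiation plus PhIP cancers, and without radiation 4 of 4 MNU cancers lay below all PhIP cancers.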

How the results depend on the processing

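Between radiation plus MNU and radiation plus PhIP no gene passed under any alternative except array weights, which gave 2 (Vps37b and Wdr82, adjusted p = 0.0354 each), in a fit whose weights did not fully converge, and the fit without radiation plus MNU 2 (Fgf3), so leaving out 1 cancer gave 0 to 1 genes. Genes with an unadjusted p under 0.05 were 697 to 1076 over these omissions and 1502 when every probe set was tested on its own. Replicate numbers are shared by the groups, but same-numbered cancers did not deviate together (correlations of 0.157, −0.0858, 0.153 and −0.204, 2 of 4 best with their own number). With the replicate block in a fit to the 8 arrays, 0 genes passed and 1046 had an unadjusted p under 0.05. Without radiation, leaving out 1 cancer gave 0 to 2 genes past the threshold and 450 to 1505 with an unadjusted p under 0.05. For the difference of the contrasts the count was 3 with quantile normalization, 4 with arrays centred on the median, 151 with array weights (1971 at unadjusted p under 0.05), 0 with the actin ratio as a covariate and 0 in a fit to the 22 nonmutated cancers, and 0 to 12 over the cancers left out, with 12 without MNU 4 and 7 without PhIP 4. Tjp3 had adjusted p of 0.0781 with the actin ratio and 0.153 in the 22 cancers. Of 1371 values for 60 genes under the alternatives, 4 changed sign, Esr1 to 0.0462 with the actin ratio, to 0.23 without radiation plus MNU 1 and to 0.24 without radiation plus PhIP 4, and Ahr to −0.0275 without radiation plus PhIP 1. Over the cancers left out 1 at a time Esr1 ranged from −0.42 to 0.24 and Ahr from −0.0275 to 0.35. The cause was not tested. The 33 list medians kept their sign with a pseudocount of 1 and with quantile normalization.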
